A study of Saccharomyces cerevisiae with 17 samples.

Results

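The 39 genes described here code for pre-mRNA splicing factors of Saccharomyces cerevisiae, and they were taken by name from the array annotation: every PRP and SNU gene with a number, SMD1 to SMD3 and LSM2 to LSM8. They are 39 of the 5449 S. cerevisiae genes compared on the array, and each has 1 probe set. The rule itself uses names alone. RNA came from the commercial wine yeast strains BM45 and VIN13 fermenting Colombar grape must with little oxygen. The groups were BM45 at day 2 (n = 2 arrays), day 5 (n = 3) and day 14 (n = 3), and VIN13 at the same days (n = 3 each), 17 arrays in all. Day 2 stood for exponential growth, day 5 for early and day 14 for late stationary phase. The labels name no mutation, plasmid or added agent, and all groups shared the must and the low oxygen. Nothing in the labels says that the arrays of a group came from separate ferments, so the p-values reflect the spread between arrays, which may be technical.

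Splicing removes introns from pre-mRNA in a particle, the spliceosome, that is put together anew on each intron from small nuclear RNAs and their proteins. The U1 particle marks the start of the intron and U2 the branch point, the joined U4/U6 and U5 particles then enter, and RNA-dependent ATPases drive the rearrangements, the cutting steps and the release of mRNA and intron. In budding yeast introns are few, but they lie in many ribosomal protein genes, so a large share of growing cells' transcripts pass through this machinery.

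Values are the deposited probe-set intensities. Differences are of log2(intensity + 16), given ± standard error of the fitted contrast, and "called", "rose" and "fell" mean a limma adjusted p under 0.05 (Benjamini-Hochberg over the 5449 genes, two-sided). Total RNA was measured, so a lower intensity cannot separate fewer cells with a transcript from fewer transcripts per cell. A background bound, an intensity of 100.7, was set from S. pombe probe sets on the same array. In every group 38 members lay above it. PRP18, for a factor of the second cutting step, lay under it in VIN13 at day 2 and day 5. PRP31 in BM45 at day 14, with a mean intensity of 119, was the member level just above it.

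The median gene lay between intensities of 866.6 and 1150.4 on the single arrays, and it moved between groups. From day 2 to day 14 of BM45 the median of all genes was -0.24, and in VIN13 -0.06. The ratio of 3' to 5' signal of the ACT1 control probe sets, a measure of RNA quality, was 3.81 ± 2.15 (SD, n = 2) in BM45 at day 2 and 3.42 ± 1.96 (SD, n = 3) in VIN13 at day 2. It was 1.52 ± 0.087 (SD, n = 3) in BM45 at day 5 and 1.43 ± 0.0333 (SD, n = 3) at day 14, and 2.07 ± 0.688 (SD, n = 3) and 1.97 ± 0.375 (SD, n = 3) in VIN13 at these days. The highest ratios of single arrays in BM45 at day 5 and day 14 were 1.61 and 1.45. In the other 4 groups, those with the larger SD, the arrays with the highest ratio were these. They were BM45 day 2 replicate 4 with 5.33, VIN13 day 2 replicate 1 with 5.55, VIN13 day 5 replicate 3 with 2.86 and VIN13 day 14 replicate 3 with 2.37. Earlier work on these data found that these 4 deviate together, and counts without them are given below. Summed intensities of 8 haploid cell markers were higher on the day 14 arrays (3831.6 to 3959.5 in BM45 and 1975.9 to 2567.2 in VIN13) than on those of day 2 (1592.4 to 1699.3 and 898.18 to 1130.7). Of these 8 genes 3 to 5 lay above the bound in each group. From day 2 to day 14, 4 rose and 1 fell in BM45 (all genes, 28.8% and 46.6%), and 5 and 1 in VIN13 (28.2% and 35.5%). Summed intensities of 9 spore markers ran from 1129 to 1916.8 over all arrays, with 4 or 5 of 9 genes above the bound in every group. The part of either marker list in the results was not tested.

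In BM45 most splicing factor genes that changed fell. From day 2 to day 5, 17 fell and 2 rose, against 33.9% of all genes called lower and 22.8% called higher. From day 5 to day 14, 18 fell and 5 rose (all genes, 43.1% lower and 23.9% higher). Over the whole span 25 fell and 6 rose (46.6% and 28.8%), and the members' median was -0.52, or -0.27 relative to the median gene. The members' share of falls over the span, 64.1%, was 38.5% with quantile normalization, where that of all genes was 39.3%. In the step from day 5 to day 14 the members' median relative to the median gene was -0.04.

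In VIN13 falls also outnumbered rises in the first step, and the division was near even after that. From day 2 to day 5, 13 members fell and 1 rose, against 22.2% and 15.5% of all genes. From day 5 to day 14, 7 fell and 7 rose (all genes, 24.5% and 19.0%). Over the whole span 10 fell and 11 rose (35.5% and 28.2%), with a median of -0.05. Of the 39 genes, 38 were called in at least 1 comparison of this report. SNU66, for a tri-snRNP protein, was called in none. It was called higher over the span in both strains with each array centred on its median gene and with quantile normalization.

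The division between rises and falls moved with the scaling of the arrays. With each array centred on its median gene 12 members were lower and 7 higher in BM45 from day 2 to day 5 (all genes, 26.9% and 32.1%), 13 and 10 from day 5 to day 14 (34.7% and 32.9%), and 16 and 11 over the span (37.3% and 41.3%). With quantile normalization the counts in BM45 were 14 and 8 (30.2% and 28.3%), 10 and 10 (34.0% and 29.9%), and 15 and 9 (39.3% and 35.9%). In VIN13 the first step had 10 lower and 3 higher under both scalings (all genes, 19.0% and 20.6% when centred, 21.5% and 18.8% with quantiles). For the second step of VIN13 they were 7 and 9 when centred (25.8% and 20.2%) and 6 and 10 with quantiles (23.3% and 22.3%). The calls present under all 3 scalings were 12 falls and 2 rises, 9 and 5, and 15 and 6 in BM45, and 10 and 1, 6 and 6, and 9 and 10 in VIN13. The share of all genes called under all 3 was not computed, so these counts have no background beside them.

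**Figure D1:**
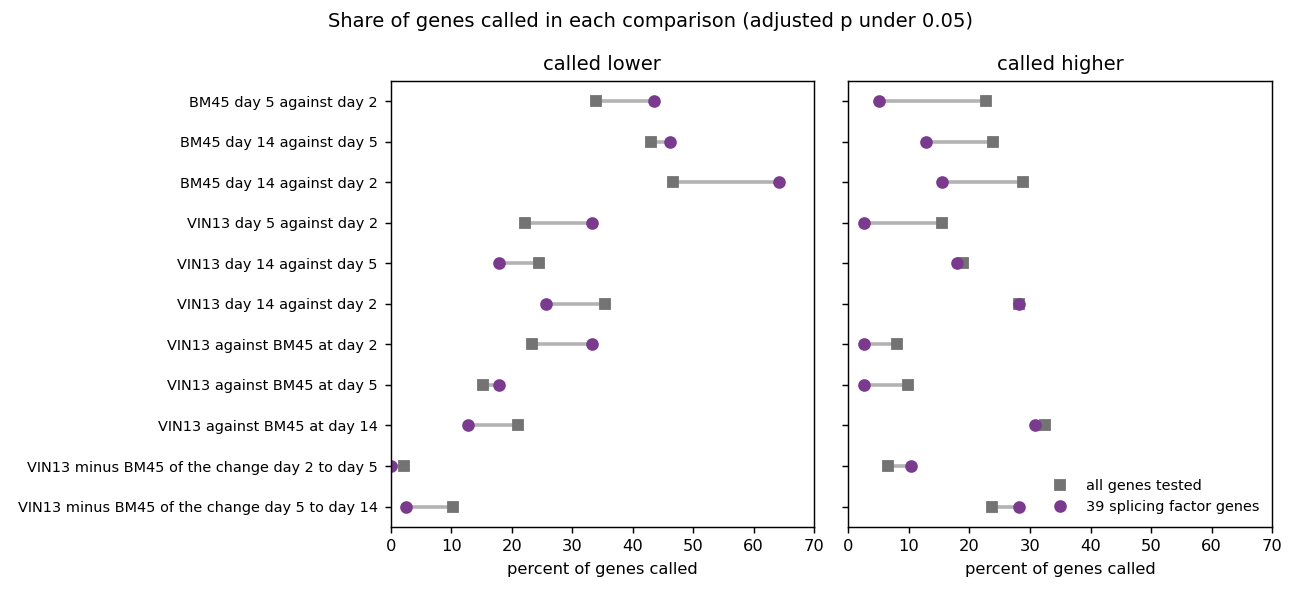
Percent of genes called lower (left) and higher (right) in each of the 11 comparisons, for the 39 splicing factor genes (circles) and all 5449 genes (squares). For BM45 day 14 against day 2 the members lie at 64.1% lower and all genes at 46.6%, whereas for VIN13 day 14 against day 2 the members lie at 25.6% and all genes at 35.5%.

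The helicases, the ATPases that remodel the spliceosome, held the largest fall. All 6 were called lower in BM45 over the whole span, against 46.6% of all genes, and PRP16, PRP22, PRP28 and PRP43 were so under all 3 scalings. In VIN13 3 fell, against 35.5% of all genes. PRP43, whose product frees the intron lariat from the spent spliceosome and also acts in ribosome assembly, read 1780.2 and 1863 in BM45 at day 2, then 341, 285 and 294 at day 5, and 189.6, 199 and 213 at day 14. In VIN13 it read 1485, 1056 and 945, then 417, 449.6 and 443, and then 278, 203 and 257. The days did not overlap in either strain, and each later day was lower.

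PRP43 fell in BM45 by -2.51 ± 0.16 from day 2 to day 5 (limma adjusted p = 3.63e-08), a 5.70-fold lower level, and by -0.57 ± 0.15 after that (0.00278). The second value was -0.10 with quantile normalization (limma adjusted p = 0.58). In VIN13 the steps were -1.35 ± 0.15 (6.92e-06) and -0.80 ± 0.15 (0.000603). Over the whole span the gene fell 8.49-fold in BM45 and 4.44-fold in VIN13. VIN13 was lower than BM45 at day 2 (-0.67 ± 0.16, limma adjusted p = 0.00679) and higher at day 5 (0.49 ± 0.15, limma adjusted p = 0.0228). The call at day 5 was lost without replicate 2 or 3 of BM45 day 5 (limma adjusted p = 0.0891 and 0.0734) or replicate 2 or 3 of VIN13 day 5 (0.0718 and 0.0502).

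PRP28, whose product swaps U1 for U6 at the start of the intron, read 1134 and 1526 in BM45 at day 2 and 381 to 411 at day 14. It fell in both steps in BM45, the second of them not called with quantile normalization (limma adjusted p = 0.316), and by -1.71 ± 0.17 in all (limma adjusted p = 2.38e-07). Its fall in VIN13 was -0.80 ± 0.15 (0.000282). PRP16, which acts between the cutting steps, read 692, 892 and 679 in BM45 at day 5 and 368, 395 and 326 at day 14, without overlap. It fell by -1.02 ± 0.16 there (3.86e-05), while VIN13 arrays overlapped between these days (595, 708 and 592, then 581, 515 and 766). PRP22, which releases the mRNA, and PRP5, which acts when U2 binds, also fell in BM45 after day 5, by -0.56 ± 0.11 and -0.55 ± 0.10, where quantile normalization gave -0.37 and -0.23, both still called, and -0.64 for PRP16. PRP2, which readies the spliceosome for the first cut, fell over the span in both strains, by -0.58 ± 0.18 in BM45 and -0.72 ± 0.16 in VIN13. The BM45 value of PRP2 rests on the arrays and the scaling: it was -0.25 without BM45 day 2 replicate 2 (limma adjusted p = 0.23), -0.90 without replicate 4 (0.000432), -0.24 when centred (0.197) and -0.02 with quantiles (0.894). PRP5 over the span (-0.55) was -0.22 and -0.03 under these scalings and not called (limma adjusted p = 0.0537 and 0.764).

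Among the U2 proteins PRP11 and PRP21 fell in every step of both strains, and PRP9 did not. The second step of PRP21 in VIN13 was lost with quantile normalization (-0.22, limma adjusted p = 0.147) and without VIN13 day 5 replicate 2 or 3 or day 14 replicate 3 or 4 (limma adjusted p from 0.0673 to 0.147), and its first step there without VIN13 day 2 replicate 1 or day 5 replicate 1 (0.0509 and 0.0685). The 3 products form one U2 subcomplex that takes part in branch point recognition. PRP11 read 725 and 553 in BM45 at day 2, 403, 364 and 365 at day 5, and 156, 158 and 171 at day 14. The VIN13 arrays read 668, 671 and 688, then 279, 299.7 and 357, and then 230.5, 221 and 213. No array of a later day reached the level of an earlier one.

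PRP11 fell in BM45 by -0.72 ± 0.12 and then -1.15 ± 0.11 (limma adjusted p = 0.00015 and 3.54e-07), and in VIN13 by -1.08 ± 0.11 and then -0.46 ± 0.11 (3.32e-06 and 0.0033). The total was 3.66-fold in BM45 and 2.91-fold in VIN13. PRP21 fell by -1.75 ± 0.15 and -0.83 ± 0.13 over the span (5.84e-08 and 7.41e-05). With quantile normalization the BM45 values over the span were -1.25 for PRP11 and -1.12 for PRP21, and both stayed called. PRP9 read 625 and 473 in BM45 at day 2 and 735, 738 and 705 at day 14. Its rise of 0.41 ± 0.12 (limma adjusted p = 0.00652) was lost without BM45 day 2 replicate 4, the array with the lower value (0.21, limma adjusted p = 0.158). In VIN13 PRP9 rose from day 5 to day 14 by 0.28 ± 0.11 (limma adjusted p = 0.0494), a call lost without replicate 1 or 4 of day 14 or any 1 array of day 5 (limma adjusted p from 0.0785 to 0.182).

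The 9 genes of the U4/U6 and tri-snRNP proteins moved in different directions. PRP31, whose product binds U4 and is needed to join the tri-snRNP, read 684 and 717 in BM45 at day 2, 286, 243 and 272 at day 5, and 123, 134 and 99.5 at day 14. VIN13 gave 336, 344 and 373, then 210.5, 235 and 230.5, and then 173, 149 and 147. BM45 began above VIN13 and ended below it, with no overlap at either end.

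PRP31 fell in BM45 by -1.34 ± 0.12 and -1.07 ± 0.11 (limma adjusted p = 5.78e-07 and 5.57e-07), 5.34-fold in all. In VIN13 it fell by -0.60 ± 0.11 and -0.48 ± 0.11 (0.00052 and 0.00206), 2.13-fold in all. VIN13 was lower at day 2 (-0.97 ± 0.12, limma adjusted p = 4.09e-05) and higher at day 14 (0.36 ± 0.11, limma adjusted p = 0.0101). The call at day 14 was lost with quantile normalization (0.11, limma adjusted p = 0.416) and without BM45 day 14 replicate 3 (limma adjusted p = 0.0655). PRP4, another U4/U6 protein, fell by -1.05 ± 0.12 in BM45 and -0.68 ± 0.11 in VIN13 over the span, and PRP6, a tri-snRNP bridge, by -0.72 ± 0.12 and -0.26 ± 0.11. In BM45 PRP4 was -0.49 with quantiles and PRP6 -0.39 when centred, both called, and the VIN13 fall of PRP6 was called under neither scaling (limma adjusted p = 0.139 and 0.109). It was also lost without VIN13 day 2 replicate 1 or 2 or day 14 replicate 1 or 4 (limma adjusted p from 0.0514 to 0.149).

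PRP3 went the other way from its partner PRP4. It read 1398 and 1369 in BM45 at day 2, 1938, 1706 and 1714 at day 5 and 2319, 2305 and 2144 at day 14. VIN13 gave 2006, 1916 and 1525, then 1990.5, 2014 and 2492, and then 2464, 3059.9 and 2623. The first and last days did not overlap in either strain. PRP3 rose over the span by 0.70 ± 0.14 in BM45 (limma adjusted p = 0.000262) and 0.58 ± 0.12 in VIN13 (0.000741). Its smaller rise in BM45 by day 5 (0.36 ± 0.14, limma adjusted p = 0.0341) was lost without BM45 day 2 replicate 4 (limma adjusted p = 0.119), replicate 2 (limma adjusted p = 0.0741) or BM45 day 5 replicate 1 (limma adjusted p = 0.108). VIN13 was higher than BM45 at day 2 (0.38 ± 0.14, limma adjusted p = 0.0466), a call lost without either BM45 array of that day or without replicate 1 or 2 of VIN13 (limma adjusted p from 0.089 to 0.138).

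SNU13 took opposite directions in the strains after day 5. Its product binds U4 in the spliceosome and also the small nucleolar RNAs that guide ribosomal RNA modification. It read 8436 and 8143 in BM45 at day 2, 3151, 2823 and 3301 at day 5, and 5241, 4568 and 4593 at day 14. In VIN13 it read 6291, 4415 and 4405, then 3575, 3609.6 and 3421, and then 3195, 2359 and 2599.8. BM45 dipped and came part of the way back, and VIN13 went down at each step, with no overlap between neighbouring days in either strain.

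SNU13 fell in BM45 by -1.42 ± 0.15 (limma adjusted p = 3.69e-06) and then rose by 0.63 ± 0.14 (0.00087). In VIN13 it fell by -0.49 ± 0.14 (0.0125) and by -0.39 ± 0.14 (0.0338). The first of these was lost without VIN13 day 2 replicate 1 (-0.32, limma adjusted p = 0.0573), and the second without any 1 array of VIN13 day 5 or replicate 3 or 4 of day 14 (limma adjusted p from 0.0531 to 0.142). VIN13 was lower at day 2 (-0.74 ± 0.15, limma adjusted p = 0.00266) and at day 14 (-0.83 ± 0.14, limma adjusted p = 0.000169).

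PRP38, whose product is needed to activate the assembled spliceosome, read 239, 232 and 224 in BM45 at day 5 and 178, 116 and 151 at day 14. In VIN13 the same days read 187, 247 and 239.6, and 296, 306 and 281. The strains shared a range at day 5 and stood apart at day 14. PRP38 fell by -0.61 ± 0.13 in BM45 (limma adjusted p = 0.000541) and rose by 0.38 ± 0.13 in VIN13 (limma adjusted p = 0.0248). With quantile normalization the fall was -0.19 and not called (limma adjusted p = 0.311). The rise was lost without VIN13 day 5 replicate 1 (limma adjusted p = 0.126), VIN13 day 14 replicate 1 (limma adjusted p = 0.0536) or VIN13 day 14 replicate 3 (limma adjusted p = 0.0729). PRP38 and SMD1 are next to each other in the genome, and SMD1 was called in neither step of either strain. PRP24, which anneals U4 to U6, fell in BM45 after day 5 by -0.73 ± 0.19 (limma adjusted p = 0.00272), or -0.26 with quantile normalization (0.039). Its call for BM45 over the whole span (-0.49 ± 0.21, limma adjusted p = 0.0423) came from arrays that overlapped between the days. It turned to 0.04 without BM45 day 2 replicate 2 (limma adjusted p = 0.771) and to 0.04 with quantile normalization (0.774), and was -1.03 without replicate 4 (5.85e-06). It was also lost when centred (-0.16, limma adjusted p = 0.449) and without any 1 array of day 14 (limma adjusted p from 0.0636 to 0.0882).

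**Figure D2:**
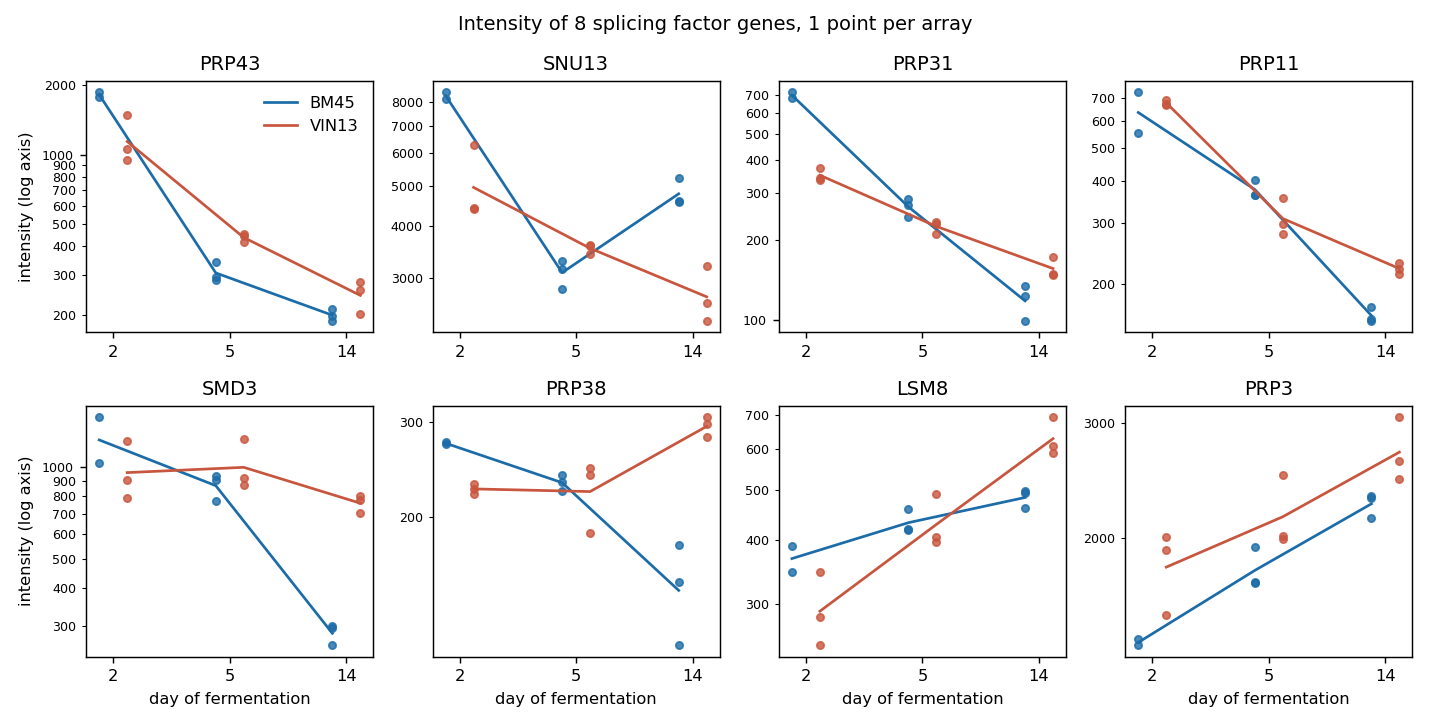
Intensity (log axis, its range set per gene) of 8 splicing factor genes against day of fermentation, 1 point per array, with lines through the mean of the log2 values of BM45 (blue) and VIN13 (red). PRP43, PRP31 and PRP11 fall at each step in both strains, SNU13 turns up in BM45 only (4568 to 5241 at day 14), and SMD3 and PRP38 in BM45 at day 14 lie under all arrays of VIN13.

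The Sm ring encircles U1, U2, U4 and U5. Of its members here, SMD2 and SMD3 were called lower in BM45 over the span (all genes, 46.6%). None of SMD1 to SMD3 was called between days in VIN13. Of the 4 other Sm ring genes, outside the name pattern, 2 rose and 1 fell in VIN13 over the span (all genes, 28.2% and 35.5%). SMD3 read 1032 and 1458 in BM45 at day 2, 908, 771 and 933 at day 5, and 295, 299.9 and 259 at day 14. In VIN13 it read 1220.3, 793 and 908, then 918, 875 and 1233, and then 777, 800.2 and 706. BM45 at day 14 stood alone under every other group.

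SMD3 fell in BM45 from day 5 to day 14 by -1.56 ± 0.17, or 2.94-fold (limma adjusted p = 1.38e-06). In VIN13 its difference over these days was -0.38 ± 0.17 (limma adjusted p = 0.0791). VIN13 was 2.59-fold higher at day 14 (1.37 ± 0.17, limma adjusted p = 1.24e-05). The fall in BM45 from day 2 to day 5 (-0.49 ± 0.19, limma adjusted p = 0.0378) was -0.01 with the ACT1 ratio as a covariate (limma adjusted p = 0.957). It was called under neither other scaling (-0.35 and -0.39, limma adjusted p = 0.149 and 0.131), nor without BM45 day 2 replicate 4 (-0.25, limma adjusted p = 0.381) or BM45 day 5 replicate 1 or 2 (0.0551 and 0.12). SMD2 fell by -0.43 ± 0.13 over the span in BM45 (limma adjusted p = 0.00759), and was not called when centred (-0.09) or with quantiles (-0.06). SMD1 was called only between the strains at day 14 (0.42 ± 0.13, limma adjusted p = 0.0129). That call was lost with quantile normalization (0.25, limma adjusted p = 0.0598) and without VIN13 day 14 replicate 3 (limma adjusted p = 0.0646).

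The Lsm ring caps the end of U6. LSM2 to LSM7 are shared with a cytoplasmic ring, completed by LSM1, that takes part in mRNA decay, and LSM8 is the member specific to the nuclear ring. LSM8 read 390.3 and 347 in BM45 at day 2, 460.4, 420.3 and 418 at day 5 and 493, 498 and 462 at day 14. In VIN13 it read 347, 249.8 and 284, then 397, 405 and 491, and then 609, 693 and 590.2. Its mean was higher at each later day in both strains, and in VIN13 no days overlapped.

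LSM8 rose in VIN13 by 0.54 ± 0.12 in each step (limma adjusted p = 0.0028 and 0.00221) and by 1.07 ± 0.12 in all (2.19e-06), a 2.10-fold rise. In BM45 it rose over the span by 0.38 ± 0.13 (0.0171), or 0.71 when centred and 0.93 with quantiles, and the call was lost without BM45 day 2 replicate 4 (0.30, limma adjusted p = 0.12). LSM5 read 1648 and 2641 in BM45 at day 2, 1392, 1327 and 1315 at day 5 and 2258, 2199 and 2098 at day 14. It rose in BM45 after day 5 by 0.69 ± 0.17 (limma adjusted p = 0.0022). LSM6 fell in BM45 over the span by -0.76 ± 0.17 (0.000827) and LSM3 by -0.73 ± 0.16 (0.000842). Without BM45 day 2 replicate 4 LSM3 was -0.40 (limma adjusted p = 0.0301), and it was not called when centred (-0.40, limma adjusted p = 0.0591) or with quantiles (-0.29, 0.209). LSM6 was -0.43 when centred (0.0396). LSM7 read 2460.4, 1653 and 1472 in VIN13 at day 2 and 2659, 3270.0 and 2570.1 at day 14. Its rise of 0.63 ± 0.22 (limma adjusted p = 0.0238) was lost without VIN13 day 2 replicate 2 (limma adjusted p = 0.072), VIN13 day 2 replicate 3 (limma adjusted p = 0.106) or VIN13 day 14 replicate 3 (limma adjusted p = 0.0905), and with quantile normalization (0.0537).

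Levels of the Lsm genes moved with the ACT1 ratio inside the groups. Per doubling of that ratio within a group, the log2 level changed by 0.18 to 0.48 for the 7 Lsm genes, all upward, with a median of 0.32, against a median of -0.05 for all genes and 0.02 for the 39 members. Outside the Lsm genes SMD3, PRP28, PRP42 and PRP6 had slopes of 0.40, 0.31, 0.22 and 0.19, within the same range. PRP18 had the lowest slope, -0.55, and PRP8, SNU66 and SNU71 had -0.43, -0.41 and -0.39. With the ratio as a covariate the falls of LSM2 and LSM5 from day 2 to day 5 were no longer called, at -0.15 and -0.13 in BM45 (limma adjusted p = 0.466 and 0.413) and -0.24 and -0.21 in VIN13 (0.13 and 0.106). The slopes rest on 17 arrays and were not tested.

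**Figure D3:**
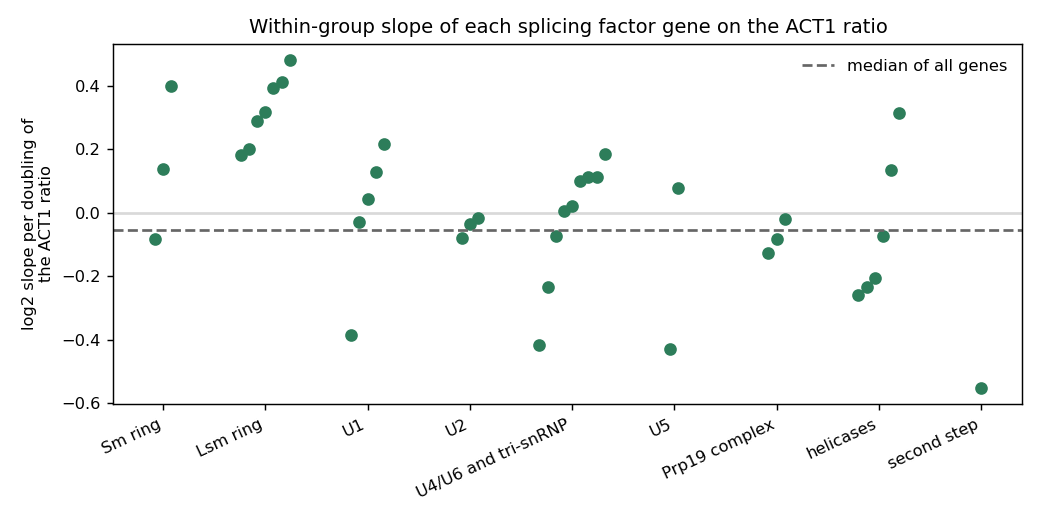
Slope of each member's log2 level on the log2 ACT1 3' to 5' ratio within the strain-by-day groups, 1 point per gene, by role in splicing, with the median of all genes as a dashed line at -0.05. The 7 Lsm genes lie between 0.18 and 0.48, and PRP18, the second step gene, lies lowest at -0.55.

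In the U5 particle SNU114, a GTPase, fell in every step, by -1.41 ± 0.11 over the span in BM45 (limma adjusted p = 2.39e-08) and -0.83 ± 0.10 in VIN13 (4.68e-06). The BM45 value was -0.73 with quantiles. Its first step in BM45 (-0.37) was not called when centred (-0.22, limma adjusted p = 0.0647), with quantiles (-0.16, 0.202) or without BM45 day 2 replicate 4 (-0.33, 0.0691). PRP8, the protein at the catalytic centre, read 892 and 689.9 in BM45 at day 2, 1188, 1499 and 1067 at day 5, and 1065, 1088 and 1029 at day 14. Its rise by day 5 (0.65 ± 0.21, limma adjusted p = 0.018) was 0.13 with the ACT1 ratio as a covariate (limma adjusted p = 0.537). It was also lost without BM45 day 2 replicate 4 (limma adjusted p = 0.161) or BM45 day 5 replicate 2 (limma adjusted p = 0.0758). In VIN13 PRP8 rose over the span by 0.61 ± 0.19 (limma adjusted p = 0.0119), but by 0.37 without VIN13 day 2 replicate 1, which ended the call (limma adjusted p = 0.068).

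Among the U1 proteins PRP42, PRP39 and SNU56 fell in BM45 over the span, by -1.15 ± 0.13, -0.39 ± 0.12 and -0.46 ± 0.12. PRP42 stayed called under the other scalings (-0.69 with quantiles). PRP39 and SNU56 were called under neither, at -0.06 and -0.12 when centred and 0.14 and 0.13 with quantiles (limma adjusted p from 0.293 to 0.641). In VIN13 PRP39 and PRP40 rose over the span, by 0.47 ± 0.10 (limma adjusted p = 0.00119) and 0.30 ± 0.10 (0.013). PRP42 read 512, 452 and 489 in BM45 at day 14 and 890.1, 1004 and 867 in VIN13. The strains did not overlap there, and the difference was 0.90 ± 0.12 (limma adjusted p = 1.82e-05).

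In the Prp19 complex, which stays with the active spliceosome, PRP45 and PRP46 rose in both strains over the span and PRP19, a ubiquitin ligase, fell in BM45 (-0.52 ± 0.14, limma adjusted p = 0.00318), a call absent when centred (-0.18, limma adjusted p = 0.194) and with quantiles (-0.26, 0.0659). PRP46 read 831 and 797 in BM45 at day 2, 616, 619 and 540.4 at day 5, and 989.6, 1029 and 940.1 at day 14. The VIN13 arrays gave 603, 652 and 601, then 576, 579.9 and 591, and then 798, 921 and 763. Day 14 was highest in both strains, with no overlap. PRP46 rose after day 5 by 0.72 ± 0.09 in BM45 (limma adjusted p = 4.67e-06) and by 0.49 ± 0.09 in VIN13 (0.000556). PRP45 rose over the span by 0.38 ± 0.12 and 0.53 ± 0.11 (0.00964 and 0.000555). In BM45 the call of PRP45 was lost without BM45 day 2 replicate 2 (0.26, limma adjusted p = 0.114), and that of PRP46 over the span (0.27) without BM45 day 2 replicate 4 (0.101) or BM45 day 14 replicate 2 (0.0718). Both were larger under the other scalings (0.71 and 0.61 when centred, 0.75 and 0.65 with quantiles).

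PRP18 read 43.7, 99 and 63.4 in VIN13 at day 2, 89.2, 120.2 and 75.4 at day 5, and 146, 154 and 132 at day 14. In BM45 it read 181 and 92.7, then 153, 163 and 147, and then 210.3, 205 and 208. Since VIN13 was under the bound at day 2, its rise to day 14 was at least 1.37-fold (limma adjusted p = 0.00156), with each dim array set to the bound. Against BM45, VIN13 was at least 1.25-fold lower at day 2 (limma adjusted p = 0.0197, arrays overlapping, lost without BM45 day 2 replicate 2, 0.23, or VIN13 day 2 replicate 1, 0.0599) and at least 1.38-fold lower at day 5 (limma adjusted p = 0.0495). The call at day 5 was lost without any 1 of the 3 BM45 arrays of that day or without replicate 1 or 3 of VIN13 (limma adjusted p from 0.0894 to 0.154). The rise in BM45 over the span, 0.61 ± 0.25 (limma adjusted p = 0.0369), was 0.18 without BM45 day 2 replicate 4 (limma adjusted p = 0.541) and -0.095 with the ACT1 ratio as a covariate (limma adjusted p = 0.609). It was also lost without any 1 of the 3 BM45 arrays of day 14 (limma adjusted p from 0.0634 to 0.0701).

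**Figure D4:**
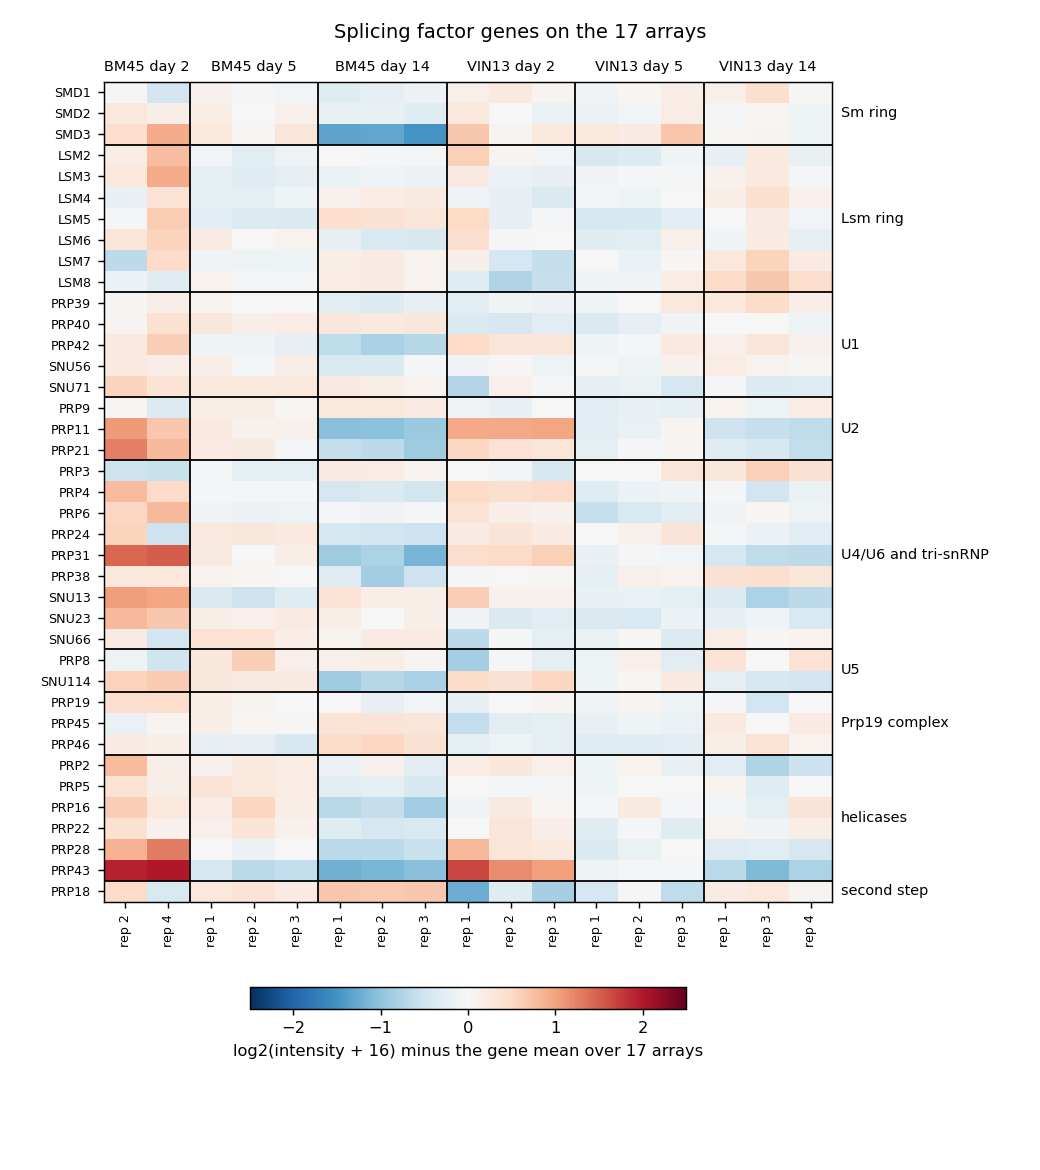
Level of the 39 splicing factor genes on each of the 17 arrays as log2(intensity + 16) minus the gene's mean over the arrays, grouped by role in splicing (right) and by strain and day (top). PRP43, PRP31, PRP11 and PRP21 are highest at day 2 of BM45 or VIN13 and lowest at day 14, SMD3 is lowest on the 3 arrays of BM45 at day 14, and BM45 day 2 replicate 4 differs in colour from replicate 2 in several Lsm genes.

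Several members kept their direction through both steps. In BM45, 9 fell in both steps (all genes, 19.2%): PRP4, PRP11, PRP21, PRP28, PRP31, PRP42, PRP43, SMD3 and SNU114. Centred on the median gene 6 did (12.8%) and with quantile normalization 3 (12.4%), and PRP11, PRP21 and PRP31 did under all 3 scalings. In VIN13, 6 did (8.22%): PRP11, PRP21, PRP31, PRP43, SNU13 and SNU114, all but PRP21 under all 3 scalings. A fall and then a rise was found for LSM5, PRP46 and SNU13 in BM45 (3 members, all genes 6.17%) and for PRP6 in VIN13 (1 member, 2.92%), LSM5 not when centred. Over the whole span 10 members fell in both strains (31.9%) and 5 rose in both (20.9%), these being LSM8, PRP3, PRP18, PRP45 and PRP46. Centred on the median gene 8 fell in both and 9 rose in both (all genes, 27.6% and 28%). With quantile normalization 8 fell and 8 rose in both (27.7% and 25.7%). Under all 3 scalings 8 fell in both and the same 5 rose in both (share of all genes not computed). PRP38 and PRP39 were called lower in BM45 and higher in VIN13 (2 members, 1.06%), but centring left PRP38 alone (0.477%) and quantile normalization neither (0 members, 0.606%). The share of members that fell in both strains was 25.6%.

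Between the strains the direction differed with the day in the deposited values, among the members and among all genes alike. With quantile normalization more members were lower than higher in VIN13 on each day. At day 2, 13 members were lower and 1 was higher in VIN13, against 23.3% and 7.95% of all genes. At day 5, 7 were lower and 1 higher (15.3% and 9.89%). At day 14, 5 were lower and 12 higher (21.1% and 32.4%), and the members' median was 0.22, or 0.15 relative to the median gene. Centred on the median gene the lower and higher members were 8 and 2 at day 2 (all genes, 11.9% and 16.3%), and 9 and 11 at day 14 (28.2% and 27.4%). With quantile normalization they were 10 and 3 (15.4% and 13.4%), and 9 and 6 (24.8% and 27.1%). The 6 members higher in VIN13 at day 14 under all 3 scalings (share of all genes not computed) were PRP16, PRP22, PRP38, PRP39, PRP42 and SMD3. In a fit of the arrays compared alone, where the 5 arrays give 3 degrees of freedom, 2 members were called lower at day 2. Of all genes 0.936% were called lower in that fit.

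SNU23 and PRP40 were lower in VIN13 on all 3 days. SNU23, for a tri-snRNP protein, read 1270.5 and 1159.5 in BM45 at day 2 and 671, 552 and 597 in VIN13. At day 5 it read 802, 788 and 835 against 554, 545 and 650.0, and at day 14 805, 722 and 797 against 618, 670.5 and 544. The strains did not overlap on any day. The differences were -0.99 ± 0.12, -0.46 ± 0.10 and -0.34 ± 0.10 (limma adjusted p = 2.86e-05, 0.00451 and 0.0131), the last of them lost without VIN13 day 14 replicate 4 (limma adjusted p = 0.0686).

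PRP40, whose product bridges the ends of the intron, read 2478, 2421 and 2491 in BM45 at day 14 and 2030.2, 2046 and 1873 in VIN13. Its differences were -0.57 ± 0.11, -0.44 ± 0.10 and -0.31 ± 0.10 (0.00135, 0.00415 and 0.0139), the last of them also lost without VIN13 day 14 replicate 4 (limma adjusted p = 0.0555). SNU71, another U1 protein, read 977, 987 and 992 in BM45 at day 5 and 712, 727 and 600.5 in VIN13. The strains stood apart there (-0.53 ± 0.17, limma adjusted p = 0.0324), but the call was lost with any 1 of the 6 arrays of that day left out (limma adjusted p from 0.0546 to 0.104) and with quantile normalization (0.0545).

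The change with time itself was compared between the strains, as the change in VIN13 minus that in BM45. From day 2 to day 5, 4 members differed upward (LSM3, PRP31, PRP43 and SNU13; all genes, 6.53%) and limma called 0 downward (2.13%), where 2 had an unadjusted p under 0.05. Each of the 4 fell in BM45, and PRP31, PRP43 and SNU13 fell by less in VIN13, where LSM3 was not called. PRP43 differed by 1.16 ± 0.22 (limma adjusted p = 0.00571), SNU13 by 0.93 ± 0.21 (0.0156), LSM3 by 0.83 ± 0.22 (0.0316) and PRP31 by 0.74 ± 0.16 (0.0128). LSM3 read 785 and 1261 in BM45 at day 2 and 546, 528 and 557 at day 5, and in VIN13 769, 588 and 566, then 612, 631 and 633. Its call was lost without BM45 day 2 replicate 4 (0.50, limma adjusted p = 0.138), without replicate 2 or 3 of VIN13 day 2, and without any 1 of the 6 arrays of day 5 (limma adjusted p from 0.0514 to 0.0778). It was also lost when centred (0.0706) and with quantiles (0.0814). Centred on the median gene the count upward and downward was 3 and 1 (all genes, 4.37% and 4.11%), and with quantile normalization 3 and 2 (5.40% and 5.10%).

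From day 5 to day 14, 11 members differed upward and 1 downward, against 23.8% and 10.3% of all genes. The members' median was 0.34, or 0.19 relative to the median gene. SMD3 differed by 1.17 ± 0.24 (limma adjusted p = 0.00205), PRP38 by 0.99 ± 0.18 (0.000999) and PRP16 by 0.98 ± 0.22 (0.00393). SNU13, the one called downward, differed by -1.02 ± 0.20 (0.00143). Centred on the median gene the counts were 8 upward and 2 downward (all genes, 15.7% and 18.7%), and with quantile normalization 5 and 3 (16.2% and 14.3%). PRP16 was 0.65 there, still called. PRP11, PRP16, PRP22, PRP38 and SMD3 upward and SNU13 downward were called under all 3 scalings. Both steps share the day 5 arrays, so their differences are given side by side and not as separate evidence.

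**Figure D5:**
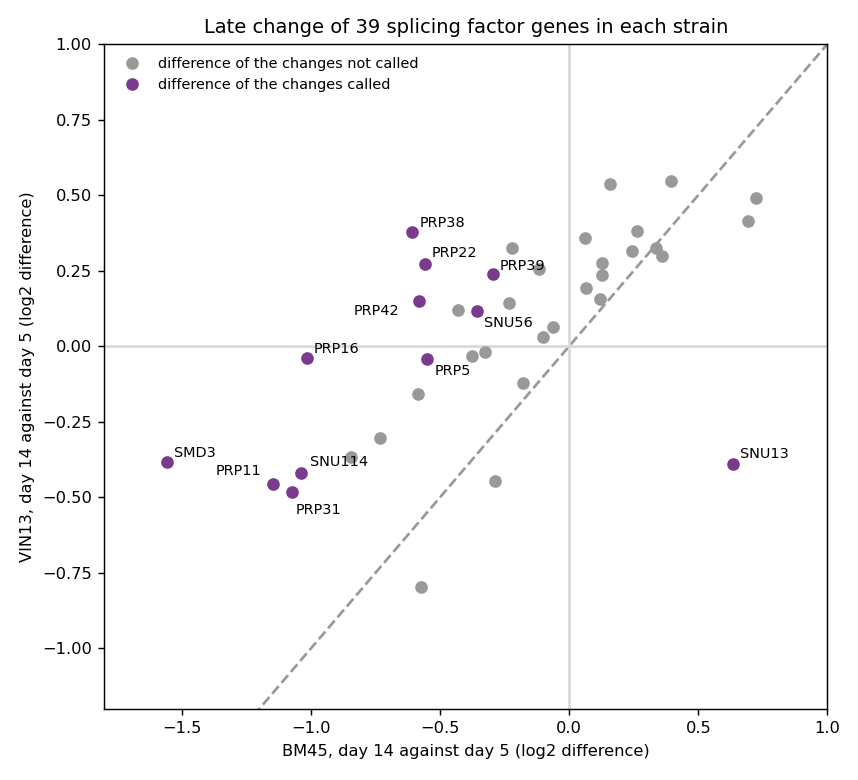
Log2 difference from day 5 to day 14 in VIN13 (vertical) against BM45 (horizontal) for the 39 splicing factor genes, with equal change on the dashed line, and the 12 genes whose changes differed between the strains in purple. SMD3 lies at -1.56 in BM45 and -0.38 in VIN13, PRP38 at -0.61 and 0.38, and SNU13 stands alone at 0.63 and -0.39.

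Without the 4 arrays named above, each with the highest ACT1 ratio of its group, BM45 at day 2 is 1 array. Its spread is then taken from the other groups, and a larger share of all genes was called in all 11 comparisons. BM45 then had 19 members lower and 4 higher from day 2 to day 5 (all genes, 41.3% and 21.4%), 21 and 9 from day 5 to day 14 (49.9% and 30.4%), and 26 and 7 over the span (52.4% and 28.5%). VIN13 had 14 and 2 (32.4% and 20.2%), 7 and 15 (27.1% and 27.9%), and 14 and 13 (40.2% and 30.8%). Between the strains 21 members were lower and 0 higher at day 2 (34.4% and 9.01%), where 1 was higher in the fit of all arrays. There were 17 and 2 at day 5 (34.3% and 16.6%), and 7 and 18 at day 14 (28.6% and 41.2%). The changes differed for 7 members upward and 0 downward in the first step (18.4% and 9.03%), and for 21 and 3 in the second (39.9% and 18.4%).

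A further 56 genes of the splicing machinery, outside the name pattern, were listed from textbook knowledge. In BM45, 19 of them fell and 8 rose from day 2 to day 5 (all genes, 33.9% and 22.8%), and 25 fell and 16 rose over the span (46.6% and 28.8%). In VIN13, 7 fell and 10 rose by day 5 (22.2% and 15.5%), and 9 fell and 24 rose over the span (35.5% and 28.2%). Their medians over the span were -0.19 in BM45 and 0.27 in VIN13, where the 39 members had -0.52 and -0.05. The 4 other Sm ring genes included SMX3, which fell in BM45 by day 5 by -1.48 ± 0.13 (limma adjusted p = 6.70e-07).

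SYF2, of the group around Prp19, read 552.28 to 637.71 in BM45 at day 5 and 111.91 to 134.76 at day 14. In VIN13 it read 345.39 to 512.85, 616.98 to 663.58 and 282.31 to 347.89 at the 3 days. It fell by -2.14 ± 0.13 in BM45 after day 5 (limma adjusted p = 9.77e-09) and by -1.04 ± 0.13 in VIN13 (2.98e-05). MSL1, for a U2 protein, lay under the background bound in BM45 at day 14 and was at least 3.77-fold lower there than at day 2 (limma adjusted p = 6.96e-08). It fell in VIN13 by -1.21 ± 0.19 (6.76e-05). LEA1, for its partner in U2, was higher in VIN13 at day 2 (0.53 ± 0.10, limma adjusted p = 0.00115) and at day 5 (0.87 ± 0.09, limma adjusted p = 4.46e-06). At day 14 LEA1 read 1029.4 to 1108.8 in VIN13 and 562.92 to 592.54 in BM45, again without overlap.

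Of 7 genes of the cytoplasmic Lsm1-7 ring and its mRNA decay partners, 4 fell and 2 rose in BM45 over the span (all genes, 46.6% and 28.8%), and 3 fell and 2 rose in VIN13 (35.5% and 28.2%). DHH1, a helicase that represses translation and promotes decapping, read 1995 to 2599.4 in BM45 at day 14 and 0.0597 to 171.27 at day 2. It was at least 15.9-fold higher at day 14 (limma adjusted p = 3.96e-05), and in VIN13 at least 4.93-fold (0.00349). From day 2 to day 5 its rise in BM45 was lost without BM45 day 2 replicate 4 (0.64, limma adjusted p = 0.546) or BM45 day 5 replicate 3 (0.0688).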

How the data were processed

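Biotin-labelled total RNA was hybridised to Affymetrix arrays with probe sets for S. cerevisiae and S. pombe. The values used are the deposited linear intensities, made by the authors with Affymetrix Expression Console per the submitters' processing notes. The version, summarisation algorithm and normalization were not given in the sources used here. Of 10928 probe sets 5498 had a single S. cerevisiae gene, giving 5449 genes. For the 47 genes with several probe sets the brightest was used. One limma 3.58.1 model (R 4.3.3; lmFit, eBayes) with a mean per strain and day was fitted to log2(intensity + 16) of the 17 arrays, with 11 residual and 3.806 prior degrees of freedom. No filter was set on dim genes. The background bound is the 95th percentile of 1746 S. pombe probe sets. A fold against a group below it was computed after raising any of its arrays below the bound to that bound, and is written "at least". The script was tested on simulated data. The number of arrays limits the precision.

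Values on every array are given for up to 3 called members with the largest rise and 3 with the largest fall per comparison that lay above the bound in the brighter group and did not overlap, and values of other pathway genes for up to 2 each way. Members and lists were chosen with earlier results of these data known. Alternatives were pseudocounts of 1 and 64, quantile normalization, median centring, a mean over probe sets, eBayes with trend and robust settings, a filter on dim genes, a replicate block, a fit of only the arrays compared, the ACT1 ratio as a covariate, 4 arrays left out and each array left out. Introns and promoters were not analysed here. Tables came from pandas 2.3.3 and numpy 2.4.6 under Python 3.11.15, and plots from matplotlib 3.10.9.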

Additional observations from a re-analysis of the deposited data

Results flagged for a closer look

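The 16 results below are changes with time that differed between the strains by the test of the difference itself, given as the change in VIN13 minus that in BM45 on the log2 scale with a limma adjusted p under 0.05. From day 2 to day 5 these were LSM3 with 0.83, PRP31 with 0.74, PRP43 with 1.16 and SNU13 with 0.93. From day 5 to day 14 they were SMD3 with 1.17, PRP38 with 0.99, PRP16 with 0.98, PRP22 with 0.83, PRP42 with 0.73, PRP11 with 0.69, SNU114 with 0.62, PRP31 with 0.59, PRP39 with 0.54, PRP5 with 0.51 and SNU56 with 0.47, and SNU13 with -1.02. With quantile normalization PRP31, PRP39, PRP42, PRP5, SNU114 and SNU56 of the second step and LSM3 of the first were not called. PRP31 and SNU13 appear for both steps, PRP31 with the same sign and SNU13 with opposite signs. Groups of 2 or 3 arrays were too small to test for an outlying array.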

How the results depend on the processing

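Counts of members called in this paragraph are sums of rises and falls, so they do not show direction. With quantile normalization the division for BM45 day 14 against day 5 went from 18 lower and 5 higher to 10 and 10. For VIN13 against BM45 at day 14 it went from 5 lower and 12 higher to 9 and 6. The summed counts held within 1.5 times of the reported count under every alternative tried, with the exceptions given here. In a fit of only the arrays compared the counts were 9 for VIN13 day 5 against day 2 (14 reported), 2 for the strains at day 2 (14) and 20 for the difference of the changes from day 5 to day 14 (12). All genes higher and lower were then 10.8% and 14.5% (15.5% and 22.2% reported), 1.05% and 0.936% (7.95% and 23.3%), and 32.6% and 15.9% (23.8% and 10.3%). Centring on the median gene gave 5 for the strains at day 5 (8), with all genes at 14.7% higher and 11.6% lower (9.89% and 15.3%). The ACT1 covariate gave 22 for VIN13 day 14 against day 5 (14), with all genes at 24.5% higher and 29.5% lower (19.0% and 24.5%). Leaving out the 4 arrays gave 22 there, 19 for the strains at day 5, 7 for the difference of the changes from day 2 to day 5 (4) and 24 for that from day 5 to day 14. Leaving out 1 array at a time gave 13 to 24, 19 to 21 and 27 to 30 for BM45 day 5 against day 2, day 14 against day 5 and day 14 against day 2, then 9 to 14, 7 to 11 and 19 to 21 for VIN13. It gave 10 to 17, 2 to 6 and 13 to 17 between the strains at days 2, 5 and 14, and 3 to 12 and 11 to 15 for the differences of the changes. VIN13 day 5 against day 2 fell to 9 without VIN13 day 2 replicate 1 or VIN13 day 5 replicate 1. VIN13 day 14 against day 5 fell to 7 without VIN13 day 5 replicate 1, 9 without VIN13 day 14 replicate 3 and 8 without replicate 4. The strains at day 5 fell to 4 without BM45 day 5 replicate 1 or 3 or VIN13 day 5 replicate 2, 3 without VIN13 day 5 replicate 1 and 2 without BM45 day 5 replicate 2. The difference of the changes from day 2 to day 5 went to 12 without BM45 day 2 replicate 2 and 7 without VIN13 day 2 replicate 1. With the ACT1 covariate PRP18 in BM45 day 14 against day 2 turned to -0.095 and DHH1 in BM45 day 5 against day 2 to -0.057. Shares of all genes were not computed with 1 array left out. The cause of these moves was not tested, beyond the fewer arrays of some fits.

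Of 1678 values of single genes over 96 results, 1571 kept their direction and side of the threshold, 105 lost the call and 2 turned. Of the 96 results 73 stayed the same throughout. They were picked among the largest called changes, mostly without overlap, so a high share kept was built in. Weaker calls described above, such as those of PRP2 and PRP24, are not among them. Members have 1 probe set each, so the mean over probe sets could not move their differences. Of 31 pairs of arrays with the same replicate number 15 had correlated deviations above 0.1 (r from -0.375 to 0.644, median 0.0214). As a whole, then, the numbers did not pair the arrays. Between the arrays numbered replicate 2, however, r was positive throughout, from 0.015 to 0.644, across strains and days. Whether these arrays share a batch was not tested. With the replicate block the members higher and lower were 1 and 16, 6 and 19, and 5 and 24 in BM45. All genes were 18.6% and 33.4%, 25.1% and 44.0%, and 26.7% and 47.0%. In VIN13 the members were 1 and 13 (all genes, 17.6% and 23.1%), 6 and 6 (21.6% and 21.1%), and 11 and 11 (31.0% and 33.1%). Between the strains they were 0 and 12 (5.58% and 21.8%), 1 and 8 (10.6% and 17.3%), and 14 and 3 (32.8% and 17.7%). For the differences of the changes they were 4 and 0 (6.07% and 1.41%), and 14 and 1 (25.7% and 8.88%). Genes near the background bound, such as PRP18, have only a bound where they are dim.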
